A study of Mus musculus with 8 samples.

Results

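Replication initiation sites (ISs) of RIF1-null CH12 cells carrying a control hairpin were compared with those of their parental RIF1-null cells. Both groups had the genotype Rif1KO, and each was represented by 2 of the 8 samples of the series. Rif1KO_shLacZ cells carried a lentiviral short hairpin RNA against LacZ, a bacterial gene that mouse cells lack, and had been infected and selected with puromycin. The Rif1KO cells carry no hairpin in their labels. CH12 is a mouse B cell lymphoma line, and per the labels all groups were kept in medium with IL4, CD40 and TGF beta stimulation. The other groups, WT and Rif1KO_shMcm6 (a hairpin against the helicase subunit gene Mcm6), are given beside this pair only where they locate a difference. The number of RIF1-null clones behind the samples is not given in the sources used here, and nascent strands do not report RIF1 levels, so the genotype was not checked here. Infection, selection, clone, library preparation and depth cannot be told apart.

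DNA replication starts at origins, where MCM helicase complexes are loaded before S phase and a subset is fired by kinases during it. RIF1 binds protein phosphatase 1, counters origin firing and shapes the order in which domains replicate. SNS-seq maps origins by sequencing short nascent strands, the RNA-primed products of recent initiation, after lambda exonuclease has removed DNA that lacks an RNA primer. Mammalian ISs often lie beside sequences able to fold into G-quadruplexes (G4), which are stacks of guanine tetrads formed by runs of G.

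The Rif1KO list held 33465 autosomal ISs and the Rif1KO_shLacZ list held 98867, 2.95 times as many. Inside ISs lay 3724571 Rif1KO reads and 21071351 Rif1KO_shLacZ reads, a ratio of 5.68. Peak numbers kept in the lists show that at least 56402 and 60299 peaks were called in the Rif1KO replicates. In the Rif1KO_shLacZ replicates there were at least 148713 and 153248. Only in this number were the replicates of a group seen to be closer to each other than to the other group. Whether replicates agreed in sites or densities was not measured. Densities were log2 RPM, the reads of an IS scaled to the condition's total inside all ISs of its table, with 1 pooled value per condition, so no replicate error exists. A counting standard error (SE) covers the reads of 1 IS, and intervals of shares and medians cover the spread over ISs, taken as independent. The 2 conditions sit in separately merged tables, Rif1KO with WT and Rif1KO_shLacZ with Rif1KO_shMcm6. Of 38954 autosomal ISs of the first table, 31462 (80.8%) overlapped exactly 1 IS of the second that in turn overlapped no other, and these are called matched ISs. They were compared by the centred difference, the Rif1KO_shLacZ value minus the Rif1KO value after each column had been set to a median of 0 over matched ISs.

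The sequences below are printed because they carry the ends of that difference and the motif around which ISs of both conditions were arranged. They were read from the mm9 assembly (plus strand), as the 300 bases around the centre of the Rif1KO IS. Capitals mark a G4 motif, defined as 4 runs of at least 3 G separated by 1 to 7 bases, or the same with C where the motif lies on the minus strand, as a string search and not as proof of a folded structure. Of the 31462 matched ISs, 49.4% held the motif in such a window. All were named by a rule: the highest and lowest differences among 6070 ISs dense in both conditions with widths within 1.5-fold of each other, leaving out windows over UTRs. The first 2 in each direction are shown, then others that hold the motif, 1 higher and 2 lower. Higher with the control hairpin were these 3, an intergenic IS on chromosome 5 and intronic ISs of B930007M17Rik and Syt16.
chr5:14990879-14991178: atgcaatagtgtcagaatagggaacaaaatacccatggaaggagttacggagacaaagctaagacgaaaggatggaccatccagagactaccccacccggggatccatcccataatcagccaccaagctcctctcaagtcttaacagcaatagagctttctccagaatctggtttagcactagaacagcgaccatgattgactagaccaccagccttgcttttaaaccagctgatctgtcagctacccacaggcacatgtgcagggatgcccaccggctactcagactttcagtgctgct
chr3:138940241-138940540: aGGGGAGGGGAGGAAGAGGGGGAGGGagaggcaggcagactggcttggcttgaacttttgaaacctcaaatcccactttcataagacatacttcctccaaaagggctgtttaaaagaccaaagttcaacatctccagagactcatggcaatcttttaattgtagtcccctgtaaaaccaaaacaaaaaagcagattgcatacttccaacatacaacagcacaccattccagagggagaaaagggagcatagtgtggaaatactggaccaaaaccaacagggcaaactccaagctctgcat
chr12:75112782-75113081: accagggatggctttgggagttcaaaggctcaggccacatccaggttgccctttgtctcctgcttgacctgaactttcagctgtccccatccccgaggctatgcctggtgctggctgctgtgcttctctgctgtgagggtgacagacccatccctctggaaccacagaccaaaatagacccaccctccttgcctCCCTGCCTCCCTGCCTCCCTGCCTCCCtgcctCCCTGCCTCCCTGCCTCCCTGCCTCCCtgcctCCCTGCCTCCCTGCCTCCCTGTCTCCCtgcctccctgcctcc

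Lower with the control hairpin were these 4 intergenic ISs.
chr11:3000212-3000511: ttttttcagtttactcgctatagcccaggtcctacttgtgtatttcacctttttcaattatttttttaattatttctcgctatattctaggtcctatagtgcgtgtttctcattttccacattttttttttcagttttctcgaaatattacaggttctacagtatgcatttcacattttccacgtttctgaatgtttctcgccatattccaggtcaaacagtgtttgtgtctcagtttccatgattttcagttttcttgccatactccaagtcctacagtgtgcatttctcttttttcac
chr3:53697984-53698283: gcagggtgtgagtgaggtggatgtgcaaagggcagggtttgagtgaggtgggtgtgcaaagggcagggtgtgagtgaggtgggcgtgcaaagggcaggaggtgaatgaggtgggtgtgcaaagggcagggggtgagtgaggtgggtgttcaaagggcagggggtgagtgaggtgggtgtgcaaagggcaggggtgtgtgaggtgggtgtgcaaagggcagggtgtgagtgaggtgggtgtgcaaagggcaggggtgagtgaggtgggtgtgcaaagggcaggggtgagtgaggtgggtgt
chr16:95312427-95312726: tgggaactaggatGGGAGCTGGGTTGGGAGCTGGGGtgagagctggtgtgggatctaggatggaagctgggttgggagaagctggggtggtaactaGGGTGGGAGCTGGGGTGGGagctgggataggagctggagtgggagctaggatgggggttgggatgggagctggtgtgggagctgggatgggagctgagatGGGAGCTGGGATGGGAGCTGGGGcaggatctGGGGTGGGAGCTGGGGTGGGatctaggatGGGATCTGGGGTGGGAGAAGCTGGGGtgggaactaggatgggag
chr4:142821976-142822275: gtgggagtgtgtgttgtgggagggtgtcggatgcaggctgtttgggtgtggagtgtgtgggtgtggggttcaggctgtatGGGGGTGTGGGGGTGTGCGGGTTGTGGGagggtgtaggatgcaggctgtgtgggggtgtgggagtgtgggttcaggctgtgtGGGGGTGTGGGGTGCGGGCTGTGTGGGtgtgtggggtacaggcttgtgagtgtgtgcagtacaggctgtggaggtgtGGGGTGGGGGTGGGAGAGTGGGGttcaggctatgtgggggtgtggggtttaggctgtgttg

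Of the lower sequences, the IS on chromosome 3 nearest Ufm1 is a tandem repeat, in which 74.7% of bases recurred at a spacing of 31 bases. The IS on chromosome 16 was equally repetitive, with 74.3% of bases recurring at a spacing of 12. The corresponding best self-match was 59.0% on chromosome 4 and 40.6% on chromosome 11, where the lowest IS lay. Among the higher sequences it was 52.7% on chromosome 12, 33.0% on chromosome 5 and 32.9% on chromosome 3. Matches were counted without gaps and at short spacings only, so diverged or longer repeats can score low.

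Most ISs of the parental cells were found again with the control hairpin, whereas most control-hairpin ISs had no parental partner. Of the 33465 Rif1KO ISs, 26731 (79.9%, 95% exact binomial interval 79.4 to 80.3%) overlapped a Rif1KO_shLacZ IS by at least 1 bp. In the other direction 26421 of 98867 Rif1KO_shLacZ ISs (26.7%, 26.4 to 27.0%) overlapped a Rif1KO IS. The WT list, which is not RIF1-null, was covered to nearly the same extent by Rif1KO_shLacZ, with 78.2% of its 25725 ISs overlapped. By contrast, only 60.3% of Rif1KO ISs overlapped an IS of the smaller WT list. Rif1KO_shMcm6 ISs, prepared with the other hairpin, overlapped 85.9% of the Rif1KO_shLacZ ISs.

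Read density separated the control-hairpin ISs with and without a partner, but hardly those of the parental cells. Among Rif1KO_shLacZ ISs divided into 10 density classes, 3.02% of the lowest class overlapped a Rif1KO IS, 25.4% of class 6 and 68.1% of the highest. Rif1KO ISs went from 75.1% in their lowest class to 81.7% in their highest, so that 613 of the 3347 densest parental ISs had no partner in a list 2.95 times as long. Rif1KO_shLacZ ISs with a partner had a median of 225 reads, against 142 for those without. Rif1KO ISs had medians of 86 and 82 reads.

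The distance to a neighbouring IS, in contrast, separated the parental ISs. Rif1KO ISs with a median distance of 2.95 to 9.46 kb to the nearest IS of their own list (classes 2 to 5 of 10) had a partner in 96.4 to 97.6% of cases, those closest together (class 1) in 88.4% and those of classes 8 to 10 (18.6 to 28.6 kb) in 59.7 to 62.7%. The change fell near the largest neighbour distance present in the Rif1KO_shLacZ list, which was 11.8 kb. The corresponding largest distances were 32.1 kb in Rif1KO, 38.3 kb in WT and 10.3 kb in Rif1KO_shMcm6. The deposited lists hold only peaks that lie in clusters, with a cluster distance set in each condition from its own peak spacing, and no IS more isolated than 11.8 kb is present in the control-hairpin list. Of the 18170 Rif1KO ISs whose neighbour lay within that distance, 95.4% (95.1 to 95.7%) had a partner, against 61.4% (60.6 to 62.2%) of the 15295 more isolated ISs. Among the 6734 Rif1KO ISs without a partner, the nearest Rif1KO_shLacZ IS was a median of 20.1 kb away, and it was over 10 kb away for 94.0%. No such dependence was seen for Rif1KO_shLacZ ISs, whose share with a partner stayed between 24.5 and 29.0% over their 10 distance classes.

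**Figure D1:**
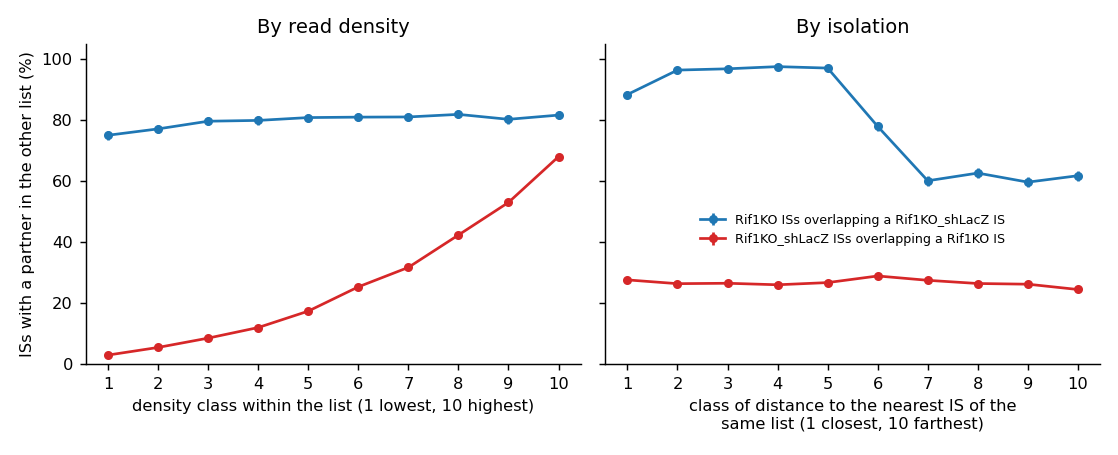
Share of ISs of each list (y axis, percent) that overlap an IS of the other list, by 10 classes of read density (left) and of distance to the nearest IS of the same list (right); bars are 95% exact binomial intervals. The Rif1KO_shLacZ share climbs with density from 3.02% to 68.1% and is flat over distance, while the Rif1KO share is nearly flat over density and drops from 97.1% in distance class 5 to 60.2% in class 7.

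ISs found in only 1 of the 2 lists differed in where else they were called. Of the 6734 Rif1KO ISs without a partner, 55.2% were also in the WT list and 26.5% in the Rif1KO_shMcm6 list, and 2180 (32.4%) were in no other list. Of the 72446 Rif1KO_shLacZ ISs without a partner, 4.94% were in the WT list and 83.7% in the Rif1KO_shMcm6 list, and 11380 (15.7%) were in no other list. Most of the extra ISs were thus in both hairpin lists, a share below the 91.9% of Rif1KO_shLacZ ISs with a partner. Rif1KO ISs with a partner were in the WT list in 61.6% of cases and in the Rif1KO_shMcm6 list in 91.9%. Rif1KO ISs without a partner were at promoters (within 1 kb of a protein-coding start) in 6.55% of cases, against 5.68% with one, and had a median GC content of 46.0% against 46.8%. Rif1KO_shLacZ ISs without a partner were at promoters in 3.57% of cases, against 5.93% with one, and exonic in 3.66% against 5.21%. Their GC content was 44.4% against 46.4%.

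Ranked by the density of the merged IS that holds each of them, the first partnerless IS of the parental list lay at the promoter of Myc, which encodes a transcription factor that drives B cell growth. At this promoter Rif1KO cells had ISs at chr15:61816150-61817413 and chr15:61817478-61817936, which the merged table joins with WT ISs into 1 IS of 1897 bp holding 861 reads. Rif1KO_shLacZ cells had a single IS there, at chr15:61816172-61816938, with 625 reads and a width of 767 bp. The second parental IS, 530 bp from the annotated start, therefore had no partner, and the 861 reads include those of the first, which had one. The difference of the merged IS was -1.86 on the log2 RPM scale but 0.18 per kb of width. The next 2 partnerless Rif1KO ISs by density were intergenic, at chr19:57581842-57582792 (615 reads, 54921 bp from the start of Trub1) and chr6:100417036-100418704 (604 reads, 180435 bp from Rybp). Each was in the WT list and absent from both hairpin lists. Among Rif1KO_shLacZ ISs without a Rif1KO partner the densest was an intronic IS of Agap1 at chr1:91398306-91400307, with 1740 reads, which was called in WT and Rif1KO_shMcm6 cells too.

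G4 motifs lay within 500 bp of the IS centre in like shares of ISs in both conditions, but in unlike shares within the central 300 bases. Within 500 bp of the IS centre a motif was found for 85.2% of Rif1KO ISs (84.8 to 85.6%) and 85.4% of Rif1KO_shLacZ ISs (85.2 to 85.6%). The share was 85.4% in the 72446 Rif1KO_shLacZ ISs without a partner and 83.5% in the 6734 Rif1KO ISs without one. Within the central 300 bases it was 48.0% of Rif1KO and 24.9% of Rif1KO_shLacZ ISs. Read along the strand that carries the G runs, the nearest motif lay upstream of the IS centre in 90.4% of Rif1KO ISs with a motif and in 93.0% of Rif1KO_shLacZ ISs with one. At the peak of the profile 32.2 motifs per 100 Rif1KO ISs fell in a 50 bp bin, against 1.62 in bins more than 800 bp away.

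The distance between motif and centre was longer with the control hairpin. The median offset was -128 bp in Rif1KO and -192 bp in Rif1KO_shLacZ, beside -106 bp in WT and -213 bp in Rif1KO_shMcm6. At matched ISs, where the same sites are viewed through both tables, it was -125 bp and -227 bp. There the control-hairpin IS reached a median of 18 bp further than the parental IS on the side of the motif and 210 bp further on the opposite side. Its centre was displaced away from the motif in 83.0% of the 26782 matched ISs with a motif, by a median of 91 bp. Both tables hold ISs merged over 2 conditions, so the second table's widths include Rif1KO_shMcm6 ISs.

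**Figure D2:**
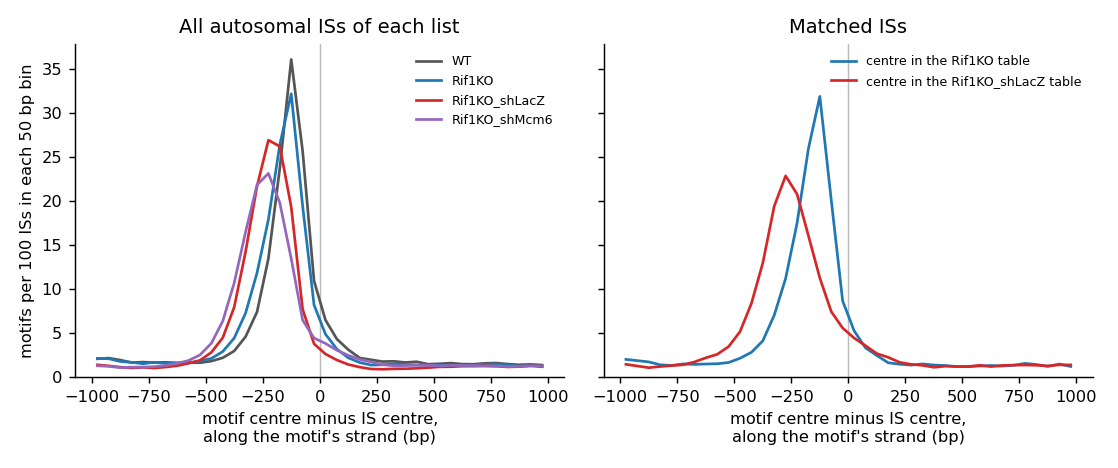
G4 motifs per 100 ISs in 50 bp bins (y axis) by distance of the motif centre from the IS centre along the motif's strand (x axis, bp), for all autosomal ISs of the 4 lists (left) and for matched ISs with centres from either table (right). All profiles peak upstream of the centre, Rif1KO and WT in the bin at -125 bp and both hairpin conditions at -225 bp; at matched ISs the peaks are at -125 and -275 bp.

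Read densities at matched ISs differed more between these conditions than within either table. Past 1.5-fold, 2733 ISs were higher with the control hairpin (8.69%) and 4014 lower (12.8%), and the standard deviation (SD) of the centred difference was 0.48. Counting error alone gives an SD of 0.19, from medians of 83 Rif1KO and 218 Rif1KO_shLacZ reads per matched IS. At the same ISs the SD was 0.28 for Rif1KO minus WT (counting SD 0.23) and 0.24 for Rif1KO_shMcm6 minus Rif1KO_shLacZ (counting SD 0.14), pairs whose columns share a table and hence IS boundaries. Rif1KO_shLacZ minus WT, which crosses tables too and shares a column with the pair described here, had an SD of 0.51. Across the 31462 ISs the log2 RPM of Rif1KO and Rif1KO_shLacZ had a Pearson correlation of 0.64 (Spearman 0.60), Rif1KO and WT 0.89, and the hairpin columns 0.91. Each of the last 2 pairs has IS boundaries in common. Of the matched ISs, 25842 were called in both the Rif1KO and Rif1KO_shLacZ lists. The 3531 called in Rif1KO_shLacZ only had a median difference of 0.14, with 19.7% past 1.5-fold higher. The 1682 called in Rif1KO only were at -0.21, with 23.2% past 1.5-fold lower. Calls and densities come from the same reads.

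Much of the difference followed the width of the IS. Matched ISs had a median width of 448 bp in the Rif1KO table and 735 bp in the Rif1KO_shLacZ table, and 94.3% were wider in the latter. In the class of ISs that widened least (median ratio 0.99) the median difference was -0.67 and 61.1% were past 1.5-fold lower. In the class that widened most (2.82) it was 0.62 and 53.4% were past 1.5-fold higher. Dividing each value by the IS width in its own table (log2 RPM per kb) lowered the SD to 0.31 and left 849 ISs higher (2.70%) and 1164 lower (3.70%). On that scale the order over width classes was turned, from 0.11 in the least to -0.21 in the most widened class. In both scales at once, 308 ISs were past 1.5-fold higher and 464 lower. Both scales are therefore used below, and a value given with no scale is by RPM.

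**Figure D3:**
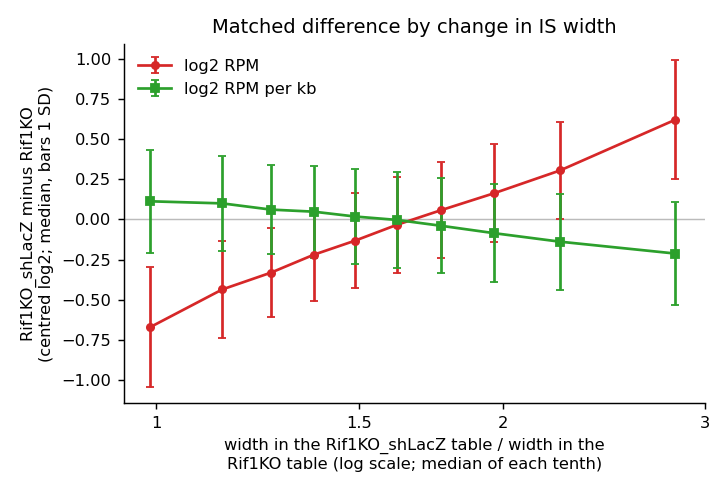
Median centred difference, Rif1KO_shLacZ minus Rif1KO (y axis, log2; bars are 1 SD over ISs), in 10 classes of the ratio of IS width between tables (x axis, log scale). By RPM the medians climb from -0.67 to 0.62 with widening, and per kb they fall from 0.11 to -0.21.

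Stretches of whole chromosomes were shifted together. The genome was cut into 10 Mb windows, of which 246 held at least 30 matched ISs. In 14 windows the median lay at least 0.2 below the median of all matched ISs (-0.08), and in 5 at least 0.2 above it. The windows between these limits ran from -0.27 to 0.12. All but 3 of the 19 windows were on chromosomes 10, 12 and 16, and the 19 windows held 8.56% of matched ISs but 18.5% of those past 1.5-fold lower.

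Chromosome 16 was lower over its whole length. Its 1735 matched ISs had a median difference of -0.37 (95% order-statistic interval -0.39 to -0.34) and of -0.20 per kb (-0.21 to -0.18), and 29.5% were past 1.5-fold lower. Here Rif1KO_shLacZ cells were near WT (median Rif1KO_shLacZ minus WT -0.03), while Rif1KO was above WT by 0.32. The number of ISs called had another order, with 778 in WT, 2113 in Rif1KO and 3793 in Rif1KO_shLacZ. The Rif1KO_shLacZ list was 1.80 times the Rif1KO list on this chromosome, the lowest ratio of any autosome. Rif1KO_shMcm6 was at the level of Rif1KO_shLacZ, with a difference of 0.03 between them. Intergenic and genic ISs shifted alike, by -0.39 and -0.35 from chr16:20000001-100000000.

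Distal chromosome 10 was lower than chromosome 16 by RPM but not per kb. The 240 matched ISs from chr10:110000001-129597934 had a median difference of -0.78 (-0.83 to -0.69), and 95.4% of them were below 0. This stretch was already lower in Rif1KO than in WT, by 0.45, and Rif1KO_shLacZ was 1.23 below WT on the log2 scale (median -1.23). Per kb the difference was -0.15 (-0.23 to -0.10), since ISs here barely widened (median width ratio 1.07, against 1.55 over all matched ISs). The number of ISs did not follow the 2.95-fold increase seen over all autosomes. The lists held 525 ISs in WT, 327 in Rif1KO, 303 in Rif1KO_shLacZ and 332 in Rif1KO_shMcm6, and 50.8% of the Rif1KO ISs had a partner. Among those with a neighbour within 11.8 kb the share was 74.9% (67.7 to 81.2%), against 95.4% over all autosomes.

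The middle of the same chromosome behaved differently. From 50 to 100 Mb, 1100 matched ISs had a median difference of -0.06 (-0.09 to -0.02) by RPM, which turned to 0.11 (0.09 to 0.13) per kb. Rif1KO and Rif1KO_shLacZ were both below WT there, with medians of -0.45 and -0.50. The lower density that parental RIF1-null cells showed along this stretch was thus present with the control hairpin at a like size by RPM, while the drop distal to it was deeper.

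Distal chromosome 12 was the one long stretch that was higher. From 80 Mb to the last IS at 121143553, 519 matched ISs had a median difference of 0.32 (0.27 to 0.37) and of 0.24 per kb (0.20 to 0.27). Of these ISs, 75.9% were above 0 and 30.3% past 1.5-fold higher. Rif1KO did not stand apart from WT here (-0.03), whereas Rif1KO_shLacZ was above WT by 0.31. Rif1KO_shMcm6 was at the level of Rif1KO_shLacZ (-0.01 between them) and above Rif1KO by 0.33. The Rif1KO_shLacZ list was 4.40 times the Rif1KO list along this stretch, with 2246 ISs against 511, and the Rif1KO_shMcm6 list held 2575. On the proximal 80 Mb the difference was -0.08, which is the median of all matched ISs.

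The edges of these chromosome 10 and 12 stretches were chosen after the window values were seen. Shifts over single windows lay on chromosomes 7 (-0.39, 50 to 60 Mb) and 11 (-0.31, 40 to 50 Mb), with per kb values of -0.08 and -0.06. A window of chromosome 4 (60 to 70 Mb) was at 0.16 by RPM and turned to -0.06 per kb. Whether the DNA copy number of these stretches differed between the cells was not tested, since no genomic DNA library was used here. Leaving out chromosomes 10, 12 and 16 gave an SD of 0.47 against 0.48, so the shifts made up little of the spread over all ISs.

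**Figure D4:**
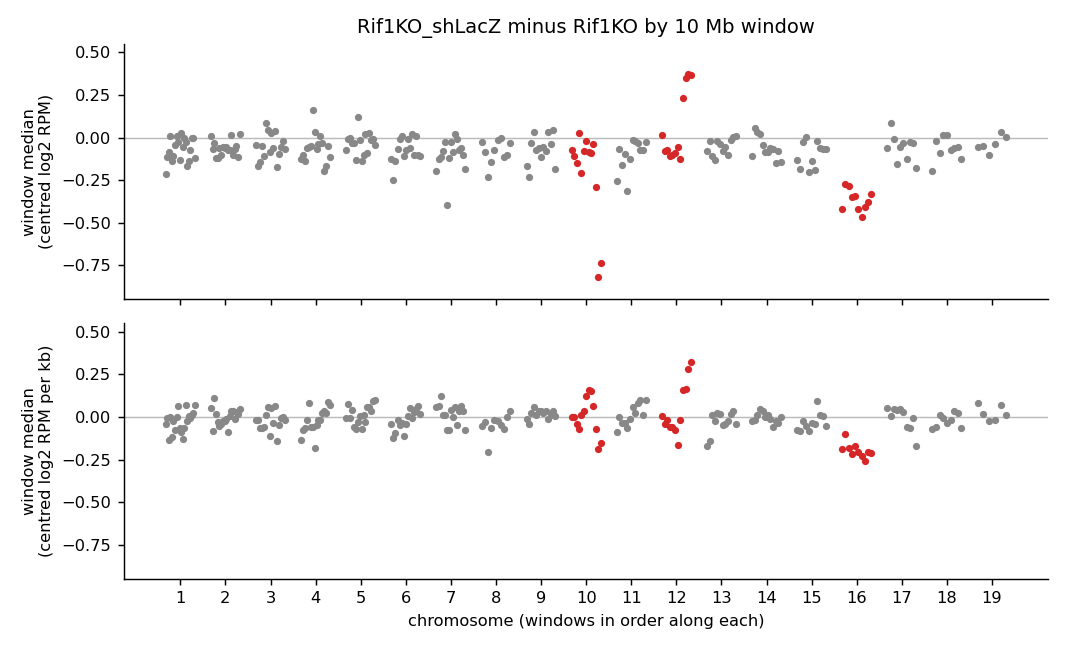
Median centred difference of matched ISs in each 10 Mb window (points; y axis, log2 RPM above and log2 RPM per kb below), in order along each autosome (x axis); chromosomes 10, 12 and 16 are red. All windows of chromosome 16 are below 0 on both scales, the distal windows of chromosome 12 are above 0 on both, and the distal windows of chromosome 10 reach -0.82 by RPM and -0.19 per kb.

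Differences by gene context and base composition were small beside these. The 1848 promoter ISs had a median difference of -0.16 (-0.20 to -0.14) by RPM, which turned to 0.03 (0.02 to 0.05) per kb, and 18.7% were past 1.5-fold lower. Promoter ISs widened less than others, 1.41-fold against 1.56-fold for intergenic ISs. Intronic ISs had a median of -0.07 by RPM and -0.01 per kb, and the 18579 intergenic ISs one of -0.08 and -0.02. Exonic ISs were at -0.08 by RPM and 0.06 per kb. Over 5 classes of GC content the median went from -0.13 in the lowest to -0.03 in the highest by RPM and from -0.07 to 0.04 per kb, an order that was the same on both scales. ISs in gene-rich surroundings followed the same order, from -0.11 to -0.06 by RPM and from -0.07 to 0.04 per kb over 5 classes of gene number within 500 kb. GC content differed between those classes as well, from 41.5 to 51.9%.

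Density gave no single order. By RPM the lowest and highest of 5 density classes had medians of -0.17 and -0.21 and the middle class 0.02. Per kb the medians were -0.06, 0.01 and 0.01 from lowest to middle to highest. ISs with a G4 motif within 500 bp were at -0.07 and those without at -0.17, and per kb at -0.0023 and -0.04. With the motif sought in the central 300 bases instead, the medians were -0.0041 with and -0.15 without by RPM, and the order turned per kb, to -0.04 with and 0.01 without.

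**Figure D5:**
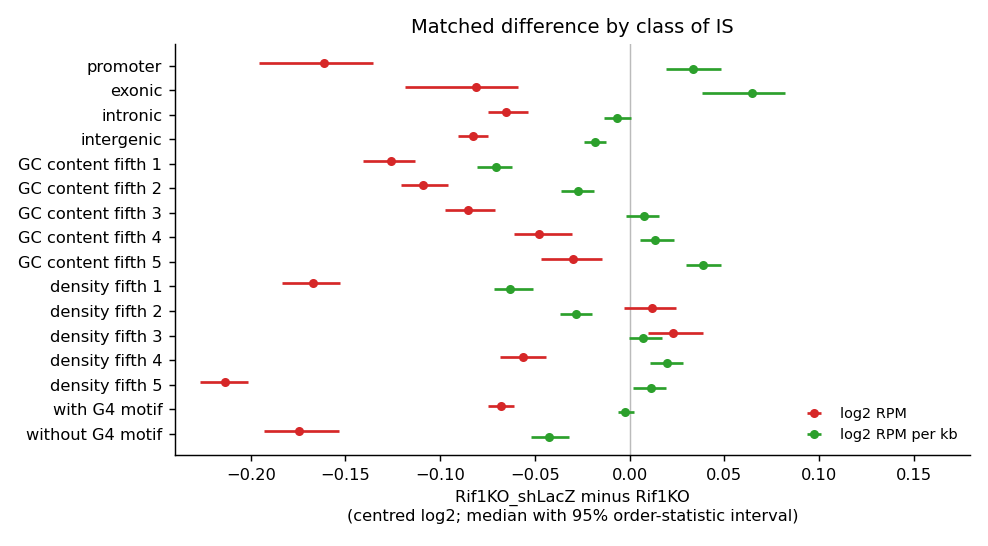
Median centred difference (x axis, log2; bars are 95% order-statistic intervals) of matched ISs by gene context, GC content, density and presence of a G4 motif within 500 bp (rows), by RPM (red) and per kb (green). Values by RPM lie mostly below 0, promoters at -0.16, and per kb values lie within 0.1 of 0.

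More genes had a promoter IS with the control hairpin in 8 of the 9 gene lists examined, all but that of the CD40, IL4 and TGF beta response. Of 21281 autosomal protein-coding genes, 1899 (8.92%) had a promoter IS in the Rif1KO list and 3739 (17.6%) in the Rif1KO_shLacZ list, with 1473 in both and 426 in Rif1KO alone. Of the 1717 matched promoter ISs, counting the densest of each gene, 8.39% were past 1.5-fold higher and 18.8% lower by RPM, with a median of -0.16. Per kb the shares were 3.67% higher and 3.38% lower and the median turned to 0.03, so the excess of lower ISs was not seen on that scale. Genic ISs away from promoters were past 1.5-fold higher in 8.74% of 11035 cases and lower in 11.9%, and per kb in 2.77% and 3.59%.

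Genes of origin licensing and firing encode the machinery that loads and activates MCM helicases. Of 30 members, 1 had one in the Rif1KO list (3.33%) and 4 in the Rif1KO_shLacZ list (13.3%), beside 8.92% and 17.6% of all genes. Matched promoter ISs were measured at Orc4, a subunit of the origin recognition complex (119 and 334 reads, difference 0.10 ± 0.15 counting SE), and at Gins2, a subunit of the GINS complex of the active helicase (46 and 128 reads, 0.08 ± 0.25). Neither was past 1.5-fold by RPM, while per kb they were at 0.46 and 0.999. The Orc4 promoter is shared with Mbd5, and only 1 licensing gene had a promoter IS in both lists.

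Genes of the CD40, IL4 and TGF beta response, signals given to these cells, had the most matched promoter ISs after the olfactory receptor genes. Of 24 members, 8 had a promoter IS in the Rif1KO list (33.3%), 7 in the Rif1KO_shLacZ list (29.2%) and 6 in both. The shares of all genes in the 2 lists were 8.92% and 17.6%. The members were chosen with earlier results of these data known, so these shares are not a test. Of the 7 matched, 3 were past 1.5-fold lower by RPM and 1 was higher, beside 18.8% and 8.39% of all promoter ISs. The lower ones were Myc, described above, Nfkb1 (a NF-kB subunit, 265 and 441 reads, -0.66 ± 0.11) and Tgfbr1 (a TGF beta receptor, 152 and 238 reads, -0.75 ± 0.15). Fos, an AP-1 transcription factor on the raised part of chromosome 12, was higher (125 and 564 reads, 0.78 ± 0.14). Per kb none of the 7 was past 1.5-fold, with Fos at 0.11, Nfkb1 at -0.27 and Tgfbr1 at -0.19. Il4ra, the IL4 receptor chain, was at -0.48 ± 0.17 by RPM and 0.06 per kb, and Stat6, the factor that IL4 activates, at -0.35 ± 0.14 and -0.0037. Stat6 lies on the lowered distal part of chromosome 10.

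Other lists gave fewer promoters, and their shares are to be read beside the same 8.92% and 17.6% of all genes. Of 22 genes of B cell identity and signalling, 1 had a promoter IS in Rif1KO (4.55%) and 6 in Rif1KO_shLacZ (27.3%). Of 27 interferon and nucleic acid sensing genes, 3 (11.1%) and 6 (22.2%) had one, near the share of all genes. Isg15 was at 0.17 ± 0.21 (0.09 per kb), Rsad2 at -0.15 ± 0.21 (-0.10) and Ddx58, the RNA sensor RIG-I, at -0.40 ± 0.22, which turned to 0.11 per kb, so none was past 1.5-fold. Of 29 genes of the p53 and DNA damage response, 3 (10.3%) and 5 (17.2%) had one, again near the share of all genes. They were matched at Bbc3 (-0.50 ± 0.19 by RPM and 0.22 per kb), Tnfrsf10b (-0.19 ± 0.11 and -0.26) and Trp53bp1 (-0.40 ± 0.12 and 0.02), so the sign turned at Bbc3 and Trp53bp1, and none was past 1.5-fold on either scale. Inside genes, away from promoters, few ISs were matched in these lists. Of 5 in the p53 list 3 were past 1.5-fold higher and 0 lower (median 0.66 by RPM and 0.04 per kb). Of 11 in the interferon list 1 was higher and 4 lower (-0.25 and -0.14), of 19 in the B cell list 1 and 1, of 19 in the CD40, IL4 and TGF beta list 0 and 2, and of 5 in the licensing list 1 and 0. Over all such genic ISs the shares were 8.74% higher and 11.9% lower.

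Olfactory receptor, ribosomal protein and replication-dependent histone genes had promoter ISs in smaller shares than all genes in both lists. Of 1081 autosomal olfactory receptor genes, whose products serve olfactory neurons, 8 had a promoter IS in Rif1KO (0.740%) and 35 in Rif1KO_shLacZ (3.24%). The 9 matched ones ranged from -0.22 ± 0.20 (Olfr1441) to 0.51 ± 0.22 (Olfr1490), with a median of 0.14. Per kb these were at -0.75 and 0.31, the ends of the range there too, and the median turned to -0.11. Of 76 ribosomal protein genes, 4 had a promoter IS in Rif1KO (5.26%) and 8 in Rif1KO_shLacZ (10.5%), with none in both, whereas 1473 of the 1899 genes with one in Rif1KO had one in both. The matched one, Rpl15, thus did not have a promoter IS in both lists, and was at -0.07 ± 0.16 by RPM and 0.49 per kb. The replication-dependent histone genes had 0 and 1 of 67. Only uniquely aligned reads were kept by the authors, and how much of these promoters can be aligned uniquely was not tested.

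Large genes linked to fragile sites, which are long and replicate late, were measured mostly inside the genes. Of 23 genes, 1 had a promoter IS in Rif1KO (4.35%) and 8 in Rif1KO_shLacZ (34.8%), beside 8.92% and 17.6% of all genes. Inside 22 of them, 250 matched ISs had a median difference of -0.08 by RPM and -0.06 per kb, with 13 past 1.5-fold higher (5.20%) and 21 lower (8.40%), beside 8.74% and 11.9% of all genic ISs away from promoters. At the Magi2 promoter the difference was 0.02 ± 0.17 by RPM and -0.84 per kb. No gene of this list had a promoter IS in both lists, and the Magi2 IS was much wider in the Rif1KO_shLacZ table.

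Among single ISs of like width, named by their RPM differences, the lower end reached further than the higher by RPM but not per kb. The 10 lowest ran from -2.12 to -1.50 by RPM and from -1.24 to -0.34 per kb, and the 10 highest from 0.61 to 1.04 and from 0.81 to 1.33. The 6070 ISs dense in both columns and within 1.5-fold in width had a median difference of -0.30, so their ends do not lie evenly about 0. The width limit leaves out the most widened ISs, whose differences were higher by RPM. The per kb values are those of ISs picked by RPM and not the ends of the per kb differences. The highest was the intergenic IS at chr5:14990708-14991349, with 547 Rif1KO_shLacZ reads, a log2 RPM of 4.76 in Rif1KO and 4.70 in Rif1KO_shLacZ, and a centred difference of 1.04 ± 0.16 (1.33 per kb). It was followed by intronic ISs of B930007M17Rik (84 and 402 reads, 0.87 ± 0.17, 1.10 per kb) and of Gphn on chromosome 12 (85 and 403 reads, 0.85 ± 0.17, 1.04 per kb). A promoter IS of Cpt1b, which encodes a carnitine palmitoyltransferase, was at 0.82 ± 0.16 (96 and 444 reads, 1.05 per kb). Of the 10 highest, 7 were intronic and 3 were on chromosome 12.

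The lowest was the IS at chr11:3000041-3000683, next to the start of the assembled sequence of chromosome 11, with 390 Rif1KO and 236 Rif1KO_shLacZ reads and a difference of -2.12 ± 0.12 (-1.24 per kb). Of the 10 lowest, 3 lay within 70.0 kb there, in or near Sfi1, which encodes a centrosomal protein. The IS inside Sfi1 at chr11:3055527-3056669 had 1001 Rif1KO and 906 Rif1KO_shLacZ reads (-1.54 ± 0.07, -0.83 per kb). The repeat-rich ISs nearest Ufm1 on chromosome 3 and nearest Kcnj6 on chromosome 16, whose sequences are printed above, were at -1.78 ± 0.12 (310 and 237 reads, -1.20 per kb) and -1.54 ± 0.08 (701 and 631 reads, -0.91 per kb). All 10 lowest ISs were at or above 6.21 log2 RPM in Rif1KO, and their Rif1KO minus WT differences lay between -0.13 and 0.18. Their levels in Rif1KO were thus near those in WT, and Rif1KO_shMcm6 differed from Rif1KO_shLacZ by -0.87 to 0.61 at the same ISs.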

How the data were processed

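SNS-seq reads of 2 samples in each of 4 groups were processed by the authors with Trim Galore 0.6.4, cutadapt 2.6 and Bowtie 1.2.3 to the mm9 build, keeping unique alignments. Peaks were called per replicate with MACS, intersected between replicates, restricted to clusters and merged between paired conditions with BedTools. The deposited tables hold log2 RPM values in ISs, pooled over replicates. Pooling is not described further in the sources used here. Their fold-change class column was not used. Peak lists per condition were deposited separately, with the number of peaks in each IS. Whole reads were recovered for 100% of values (tolerance 0.01).

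Lists were overlapped by at least 1 bp. Matched ISs were autosomal and one-to-one. Shares past 1.5-fold, medians and SDs are descriptions with no test, as each condition has 1 value. Intervals were exact binomial for shares and order-statistic for medians. Both are taken over ISs as if independent, which neighbouring ISs may not be. The counting SE of a difference was computed from the reads of both columns, which carry no molecular identifiers, and covers counting error only. Gene models were GENCODE M1 on the same assembly. Named ISs were the 10 highest and lowest differences among ISs at or above the median in both columns with widths within 1.5-fold. Genes named were the promoter ISs of fixed lists. One gene and 1 sequence that these rules select are not reported here. The members and lists were chosen with earlier results of these data known. Scripts used Python 3.11.15 with numpy, pandas, scipy and pysam, and were tested on simulated data.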

Additional observations from a re-analysis of the deposited data

How the results depend on the processing

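No paired analysis was possible because the files hold 1 pooled value per condition, which also left out the fits without each replicate and with a replicate block. Requiring overlap of 50% of both ISs gave partners to 67.2% of Rif1KO and 22.7% of Rif1KO_shLacZ ISs. The share was 81.2% for Rif1KO ISs at or above median density and 95.4% for those with a neighbour within the largest Rif1KO_shLacZ distance, an alternative chosen after seeing the data. For Rif1KO_shLacZ it was 52.3% over its densest ISs, as many as the Rif1KO list holds, and 26.3% with chromosome X.

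The shares past 1.5-fold higher and lower, and the SD, were 2.70%, 3.70% and 0.31 per kb. They were 4.12%, 8.91% and 0.39 with overlap of 50% of both ISs, 6.76%, 7.58% and 0.41 at or above the lower quartile, 8.15%, 11.7% and 0.46 in ISs called in both lists, and 7.67%, 10.8% and 0.45 as log2(RPM + 1). Centring each chromosome gave 8.25% higher and an SD of 0.48. No centring gave 0.083% and 89.2%, since the tables hold different numbers of ISs. With 2-fold the shares were 1.76% and 2.49%, and past 0.32 on the log2 scale 19.7% and 29.9%. Chosen after seeing the data, ISs within 10% of the median width ratio gave 1.97%, 3.51% and 0.30, and leaving out chromosomes 10, 12 and 16 gave 8.25% higher and an SD of 0.47.

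Median differences turned sign per kb for chromosome 10 (0.029), promoters (0.033), the highest GC class (0.039) and the highest density class (0.011). At or above the lower quartile the highest GC class turned to 0.00090. The cause was not tested. Chromosome 16 kept its sign at -0.20 per kb, -0.33 in ISs called in both lists and -0.26 at or above the lower quartile. With those last 2 settings chromosome 10 was at -0.19 and -0.063, and the highest density class at -0.19 and -0.17. Promoters were at -0.093 at or above the lower quartile. The lowest GC class was at -0.070 per kb and -0.074 at or above the lower quartile, and the lowest density class at -0.063 per kb. Chromosome 12 stayed within its interval in all 3 settings.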
